A study of Mus musculus with 4 samples.

Results

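The interferon-induced transmembrane (Ifitm) genes Ifitm1, Ifitm2, Ifitm3, Ifitm5 and Ifitm6 form a cluster on mouse chromosome 7. They were followed on 4 expression arrays, 2 from a tumorigenic and 2 from a nontumorigenic subline of transformed neural stem cells. The members were taken by gene symbol, and the family was selected on the measured difference of Ifitm1 between these same arrays, which is among the largest in the data. All 5 members had a probe set, 1 each, among 18193 genes with one, and no probe set was annotated to several of them. Since the choice used the contrast between the sublines, the members' differences are given as a description and without printed p-values. Where members are said to pass limma's threshold, this places them beside other genes and is not a test of them.

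Ifitm proteins are small palmitoylated membrane proteins that hinder enveloped viruses from fusing with the host cell. Ifitm3 acts mainly in endosomes and lysosomes, while Ifitm1 lies largely at the cell surface. Interferons induce several of the genes: the receptors activate the kinases Jak1 and Tyk2, and a complex that holds Stat2 and Irf9 then binds the interferon-stimulated response element in target promoters. Ifitm1 and Ifitm3 are also known from early germ cells and embryonic tissue, where they are transcribed without infection. Ifitm5 is known from bone-forming osteoblasts.

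The reference sequence around the transcription starts shows how the members differ in this element. It was searched on both strands as GAAA, any 2 bases and GAAA again, and the gamma-activated sequence as TTCNNNGAA (the same letters on either strand). The window ran from 250 bases before to 50 bases after each start, and all 5 members had a window (RefSeq, assembly GRCm38.p6). Such a window held the response element in 3.99% of 27025 genes and TTCNNNGAA in 9.55%. The sequences below are the matching sites of Ifitm3, Ifitm2 and Ifitm6, with the response element in capitals for Ifitm3 and Ifitm2 and TTCNNNGAA in capitals for Ifitm6, and the stretch before the start of Ifitm1, the member with the largest difference, which held neither motif.
Ifitm3, bases 1 to 30 from the start, chr7:141010715-141010744, minus strand: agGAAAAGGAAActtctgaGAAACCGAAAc
Ifitm2, match beginning 46 bases before the start, chr7:140955988-140956017, minus strand: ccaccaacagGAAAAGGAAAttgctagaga
Ifitm6, match to TTCNNNGAA, chr7:141016884-141016912, minus strand: ccatatgaacTTCCTTGAAacaagagctt
Ifitm1, 250 bases before the start, chr7:140967826-140968075, plus strand: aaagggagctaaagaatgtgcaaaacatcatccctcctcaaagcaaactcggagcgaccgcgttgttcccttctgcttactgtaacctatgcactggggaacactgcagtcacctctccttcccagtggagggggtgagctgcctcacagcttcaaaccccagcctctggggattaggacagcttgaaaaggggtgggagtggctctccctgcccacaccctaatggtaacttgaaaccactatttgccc
Ifitm3 held 2 matches to the response element, the first with the same 10 letters as that of Ifitm2. Between them lay a match to TTCNNNGAA, left in lower case up to its end, which overlapped the second. Ifitm6 held TTCNNNGAA alone, and Ifitm5 held neither motif. The window of Ifitm1 covers 1 of its annotated starts, and other starts were not searched. A match is a string of letters and not a measured binding site, and no match says only that these letters are not in the window.

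Both sublines shared their origin. Neural stem cells were taken from the telencephalon of p53-/- C57BL/6 embryos at embryonic day 14.5 and grown as floating spheres in medium with PDGF and bFGF. They were electroporated with pCMS-EGFP-HRasL61, which encodes GFP and an activated HRas, and with pBabe-neo, selected in neomycin and sorted for GFP. The tumorigenic subline was labelled glioma-initiating cell-like (GIC) and the nontumorigenic one non-GIC, so every cell in the comparison lacked p53 and carried the oncogene. The labels do not say whether a subline is 1 clone, nor whether the 2 arrays of a subline stand for 2 cultures, and so the p-values reflect the spread of these arrays alone, which could be technical. Any other difference between the sublines goes along with tumorigenicity.

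Each deposited value is a log2 signal of 1 probe set on 1 array, with array medians of 6.58 to 6.63. Genes with 2 or more arrays above a level of 5.97, the 40th percentile of the whole table, were tested, 13366 in all. Differences are GIC minus non-GIC, and a gene is called changed where limma's Benjamini-Hochberg adjusted p is under 0.05. Of all tested genes 1.92% were called, 1.23% higher and 0.688% lower in GIC. The median difference of all tested genes was -0.01. Of 9 tested neural stem cell markers, 2 were lower in GIC, Nes (11.45 and 10.81 in non-GIC, 9.17 and 8.97 in GIC) and Fabp7 (6.58 and 6.89 in non-GIC, 5.23 on both GIC arrays), and both calls were lost without any 1 of the arrays (limma adjusted p from 0.0507 to 0.166). The intermediate filament Vim lay between 14.50 and 14.71 on all arrays. The transcription factor Sox2 had 11.15 and 11.44 in non-GIC and 10.20 and 10.59 in GIC (limma adjusted p = 0.144), and Sox9 had 7.66 and 8.76 in non-GIC and 10.13 and 9.24 in GIC (adjusted p = 0.231). Olig2 and Prom1 lay below 5.97 throughout. Of 12 microglia and macrophage markers 8 lay below 5.97 on all arrays, among them Ptprc, Aif1 and Itgam, and no tested one was called (3 tested). In bulk RNA, fewer cells of a type and less RNA per cell cannot be told apart.

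Ifitm1 separated the sublines most widely among the members. Its signal in GIC was 12.33 on replicate 1 and 11.52 on replicate 2, and in non-GIC it was 5.87 and 6.24. Both GIC arrays were far above both non-GIC arrays, and the non-GIC values straddled the filter level of 5.97. The GIC mean was 11.92 ± 0.57 and the non-GIC mean 6.06 ± 0.26 (SD, n = 2). The log2 difference was 5.87 (SE 0.33), or 58.4-fold, the third largest increase of the 13366 tested genes. Since the non-GIC signal is at the low end of the scale, this fold can be understated.

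Ifitm6 had the next largest difference. The GIC replicates were at 8.29 and 7.70 and the non-GIC replicates at 5.55 and 5.71, so that the subline with the lower values lay below the filter level on both arrays. The log2 difference was 2.36 (SE 0.23), or 5.15-fold, and here too the fold can be understated. An increase of that size or more was seen in 0.905% of tested genes.

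Ifitm2 and Ifitm3, the widely expressed members, were well above the filter level in both sublines and differed by less. For Ifitm2 the GIC replicates were at 13.66 and 13.08 and the non-GIC replicates at 12.12 and 12.48. For Ifitm3 they were at 13.44 and 13.12 in GIC and at 11.91 and 12.50 in non-GIC. The groups did not overlap for either gene, and the gap between the closest GIC and non-GIC arrays, 0.60 for Ifitm2 and 0.62 for Ifitm3, was about as wide as the widest distance between replicates, 0.58 and 0.59. The log2 difference was 1.07 for both (SE 0.25 for each), or 2.10-fold. An increase of at least this size was seen in 3.98% of tested genes for Ifitm2 and 3.95% for Ifitm3.

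Ifitm5, the osteoblast member, lay between 6.77 and 6.88 on all 4 arrays. Its GIC values of 6.77 and 6.79 were just under its non-GIC values of 6.88 and 6.81. The log2 difference was -0.06 (SE 0.11), smaller in size than its SE. Of the 8 osteoblast markers 5 had a probe set, and both tested ones, Sp7 and Alpl, were not called (log2 differences -0.06 and 0.05).

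**Figure D1:**
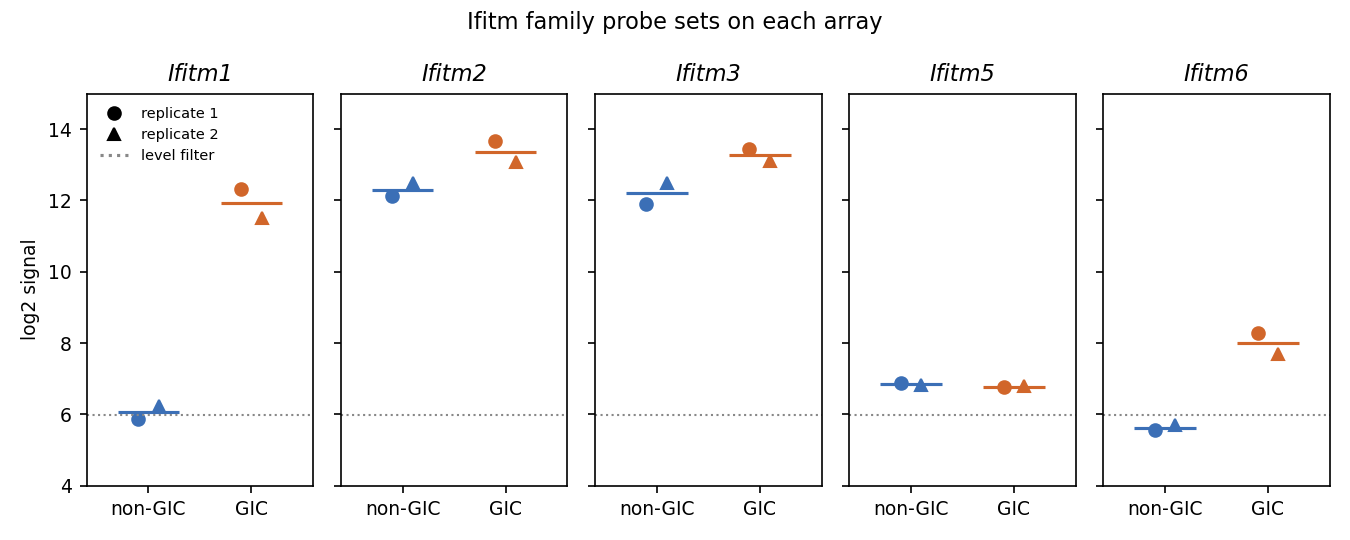
Log2 signal (vertical axis) of the 5 Ifitm probe sets on each array, with non-GIC in blue and GIC in orange, circles for replicate 1, triangles for replicate 2, bars for group means and a dotted line at the filter level of 5.97. Ifitm1 goes from about the filter level to above 11 and Ifitm5 stays between 6.77 and 6.88. Signals of different probe sets are not comparable with each other.

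Within the cluster the differences were therefore unequal. The Ifitm1 difference exceeded that of Ifitm2 by 4.80, that of Ifitm3 by 4.79 and that of Ifitm6 by 3.50 on the log2 scale. All 5 members were past the filter, Ifitm6 through the GIC arrays alone. Of them 2 passed limma's threshold, Ifitm1 and Ifitm6, both higher, beside 1.23% of all genes. For Ifitm1 the choice of the family fixed this outcome. In 4 members the GIC arrays lay above the non-GIC arrays, beside 25.5% of all tested genes. These counts come from the contrast on which the family was chosen and are not evidence for it. Without non-GIC replicate 1 or without non-GIC replicate 2 no member passed limma's threshold, while 3 and 4 members had an unadjusted p under 0.05. Calls of members with an array left out repeat the contrast of the choice and are no support for them. With 1 array left out the Ifitm1 difference lay between 44.0-fold and 77.2-fold and the Ifitm6 difference between 4.20-fold and 6.32-fold.

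The differences between arrays of the same subline, which played no part in choosing the family, ran alike in 4 members. GIC replicate 1 was above GIC replicate 2 by 0.81 for Ifitm1, 0.60 for Ifitm6, 0.58 for Ifitm2 and 0.32 for Ifitm3 on the log2 scale. Over all tested genes the median of that difference was 0.00 with an SD of 0.42, and 50.7% of genes were higher on GIC replicate 1. In the same 4 members non-GIC replicate 2 was above non-GIC replicate 1, by 0.37 for Ifitm1, 0.17 for Ifitm6, 0.36 for Ifitm2 and 0.59 for Ifitm3. Non-GIC replicate 2 was the higher array in 48% of all tested genes. Over all tested genes the 2 replicate differences were negatively correlated (r = -0.32), so these 2 patterns are not separate observations. For Ifitm5 these differences were -0.02 between the GIC arrays and 0.08 between the non-GIC arrays (replicate 1 minus replicate 2).

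The genes beside the cluster show how far the difference extends along the chromosome. The 10 nearest genes with a probe set on each side were examined, in the gene order of GRCm38.p6, and 18 of these 20 passed the filter. B4galnt4, a glycosyltransferase gene next to Ifitm6, rose 3.51-fold in GIC (limma adjusted p = 0.0368), with GIC replicates at 8.54 and 8.00 and non-GIC replicates at 6.48 and 6.44. It was the 1 neighbour called (5.56% of the 18, beside 1.23% of all genes higher), and the call was lost without GIC replicate 1 or without either non-GIC array (adjusted p = 0.0831, 0.185 and 0.159). Sigirr, a negative regulator of interleukin-1 receptor signalling, had 8.18 and 8.33 in GIC and 7.10 and 6.50 in non-GIC (adjusted p = 0.0732), and is named after its value was seen. Of the 18 tested neighbours 15 differed by less than 0.3 on the log2 scale, including Pgghg and Nlrp6, the nearest on the Ifitm5 side, at 0.26 and 0.10. No neighbour was called lower, and none had a lower value at an unadjusted p under 0.05 (0 of 18 with limma). The neighbours' median was 0.18, beside -0.01 for all tested genes.

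**Figure D2:**
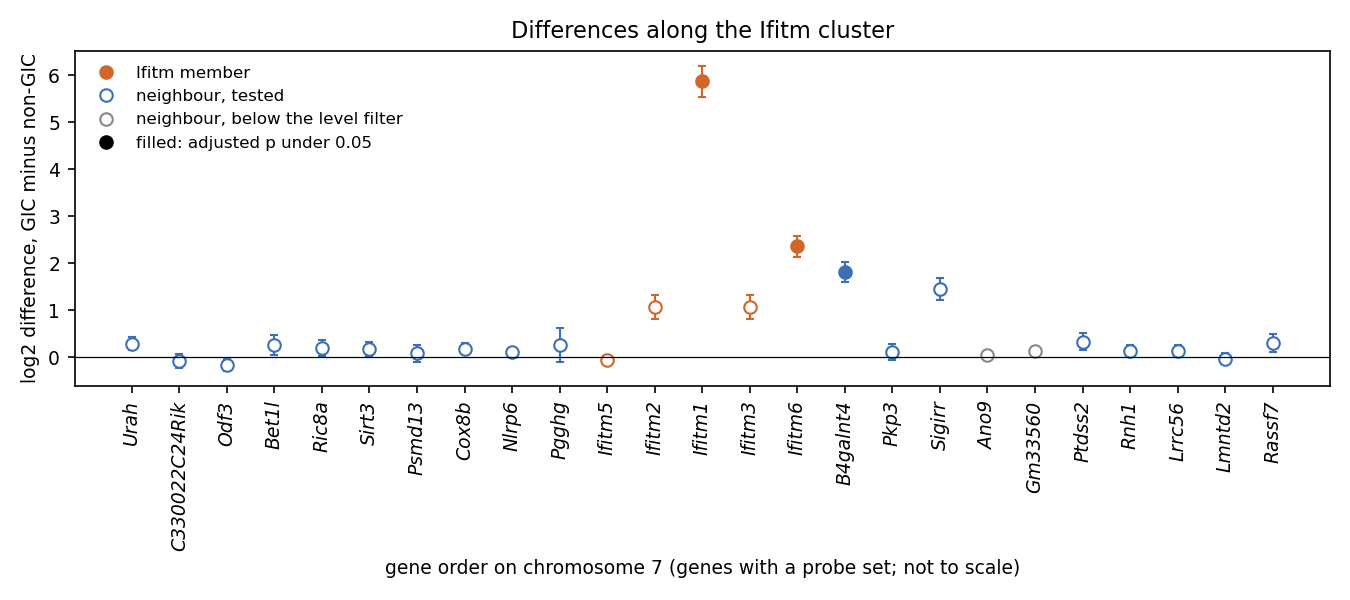
Log2 difference, GIC minus non-GIC, with its SE as bars (vertical axis), for the Ifitm members (orange) and the 10 nearest genes on each side (blue, or grey without bars where below the level filter), in gene order on chromosome 7 (horizontal axis, not to scale). Filled points passed limma's threshold: Ifitm1 at 5.87, Ifitm6 at 2.36 and B4galnt4 at 1.81. For the members this is a description and not a test.

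Among other interferon-stimulated genes, large differences in the same direction as Ifitm1 were frequent, though few passed the test gene by gene. Of 30 tested genes, 4 rose (13.3%, beside 1.23% of all genes), 0 fell and 26 did not pass. This list and the gene lists below were chosen with earlier results of these data known. Their shares are therefore a description and not independent support. The ISG15 protease Usp18 rose 19.9-fold (limma adjusted p = 0.0428), Oasl2, a relative of the oligoadenylate synthetases, rose 16.0-fold (adjusted p = 0.0484), the pro-apoptotic factor Xaf1 rose 12.4-fold (adjusted p = 0.0459) and Oasl1 rose 2.15-fold (adjusted p = 0.0483). Usp18 had 5.46 and 5.32 in non-GIC and Oasl2 had 4.35 and 4.81, below the filter level, so that both entered the test through the GIC arrays alone and their folds can be understated. At an unadjusted p under 0.05, 18 were higher and 0 lower, beside 9.75% and 8.1% of all tested genes. The median log2 difference was 1.16, beside -0.01 for all tested genes. Without the level filter the list's median over 34 genes was 0.95, and with limma 20 were higher and 0 lower at an unadjusted p under 0.05. In 16 genes the GIC arrays were at least 2-fold higher by the means without overlap, which holds for 4.18% of all tested genes. Among members that did not pass, named after their values were seen, the RNA-binding Ifit1 had 10.28 and 8.63 in GIC and 4.74 and 5.55 in non-GIC (adjusted p = 0.0538), and the chaperone Rtp4 had 11.71 and 10.27 in GIC and 6.88 and 7.49 in non-GIC (adjusted p = 0.052). Ifit1 too entered the test through the GIC arrays alone, and so did Iigp1, with 5.28 and 5.17 in non-GIC. Usp18, Oasl2, Ifit1 and Iigp1 are all counted in the 18 and the 16 above. With GIC replicate 1 or GIC replicate 2 left out the log2 difference was 3.49 or 5.14 for Ifit1 and 3.08 or 4.53 for Rtp4. The number of genes that passed changed without either GIC array, where the spread came from the non-GIC arrays alone. With limma none passed without non-GIC replicate 1 or 2, where 15 and 16 were higher at an unadjusted p under 0.05, or with eBayes without a trend, where 17 were. Without the level filter 2 of 34 passed, as Oasl1 (adjusted p = 0.0543) and Oasl2 (0.0529) lost the call. Oasl1 also lost it without any 1 of the arrays (adjusted p from 0.0716 to 0.193). Without GIC replicate 1 or GIC replicate 2 the increase was 11.4-fold or 34.8-fold for Usp18, 9.32-fold or 27.5-fold for Oasl2, and that of Xaf1 was 2.94 or 4.32 on the log2 scale. With its probe sets averaged the log2 difference of Xaf1 was 1.88 in place of 3.63.

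An increase was not seen in every interferon-stimulated gene. A difference under 0.3 on the log2 scale in either direction was found for 7 of the 30. The oligoadenylate synthetase Oas2 lay between 7.04 and 7.08 on all arrays, and the antiviral radical enzyme Rsad2 (viperin) had 7.07 and 6.99 in GIC and 6.71 and 6.82 in non-GIC (log2 difference 0.26). Of the 7, Cmpk2 (5.88 to 6.20) and Epsti1 (6.11 to 6.16) lay near the filter level, and Oas2 and Rsad2 not far above the array medians. At such levels a flat value cannot be told from a probe set with little signal. Herc6 and Samd9l lay higher, between 8.32 and 9.26. These genes are named after their values were seen. Isg15 was not analysed here. The response element lay in the start window of 14 of 26 interferon-stimulated genes with a window (53.8%), beside 3.99% of all genes. None of the 3 called genes with a window, Xaf1, Oasl1 and Oasl2, held it, and 10 of 18 tested but not called genes did. Of those 10, Rsad2 and Oas1a had log2 differences of 0.26 and 0.38, and the others lay between 2.11 (Ifih1) and 4.31 (Ifit1). Of the uncalled genes without it, Lgals3bp had 2.92 and the others lay between 0.01 and 0.72. The calls thus do not sort these genes by size of difference, and a link with the element was not tested.

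All 30 tested interferon-stimulated genes were higher on GIC replicate 1 than on GIC replicate 2, as were Ifitm1, Ifitm2, Ifitm3 and Ifitm6. The median of that difference was 0.98 for the list. In the 16 genes with at least a 2-fold increase it ranged from 0.30 to 1.82 with a median of 1.47, and 13 of these had a wider gap than the 0.81 of Ifitm1. None of the 16 had a larger difference between the sublines than Ifitm1. The number of called genes depended on which arrays were used. Over the interferon-stimulated, signalling and restriction lists together 6 of 67 tested genes rose with all arrays (8.96%, beside 1.23% of all genes). This number and that of all called genes both changed when a GIC array was left out. The median log2 difference of the 67 genes was 0.51 with all arrays, 0.28 without GIC replicate 1 and 0.75 without GIC replicate 2. With limma none passed without non-GIC replicate 1 or without non-GIC replicate 2, where 23 and 25 genes were higher at an unadjusted p under 0.05. The fibroblast and mural marker list also differed between the GIC arrays, with a mean signal over its 10 genes of 9.80 on replicate 1 and 8.95 on replicate 2, against 9.42 and 9.35 in non-GIC. That gap was widest for Col1a1, Col3a1 and Pdgfrb (2.89, 2.57 and 1.38). Of the 7 tested genes of the list 0 rose and 1 fell (14.3%, beside 0.688% of all genes lower). It was the smooth muscle actin Acta2, 3.28-fold lower in GIC (13.30 and 12.79, against 14.75 and 14.76 in non-GIC, limma adjusted p = 0.0348). The call was lost without either non-GIC array. Of the others Col1a2, Col3a1 and Dcn differed by 1.26, 0.77 and 0.52, and Col1a1, Pdgfrb and Cspg4 by -2.06, -0.19 and -0.08 on the log2 scale. With probe sets that may bind several transcripts left out the log2 difference of Acta2 was -3.68 in place of -1.71. The list's part in the result was not tested.

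**Figure D3:**
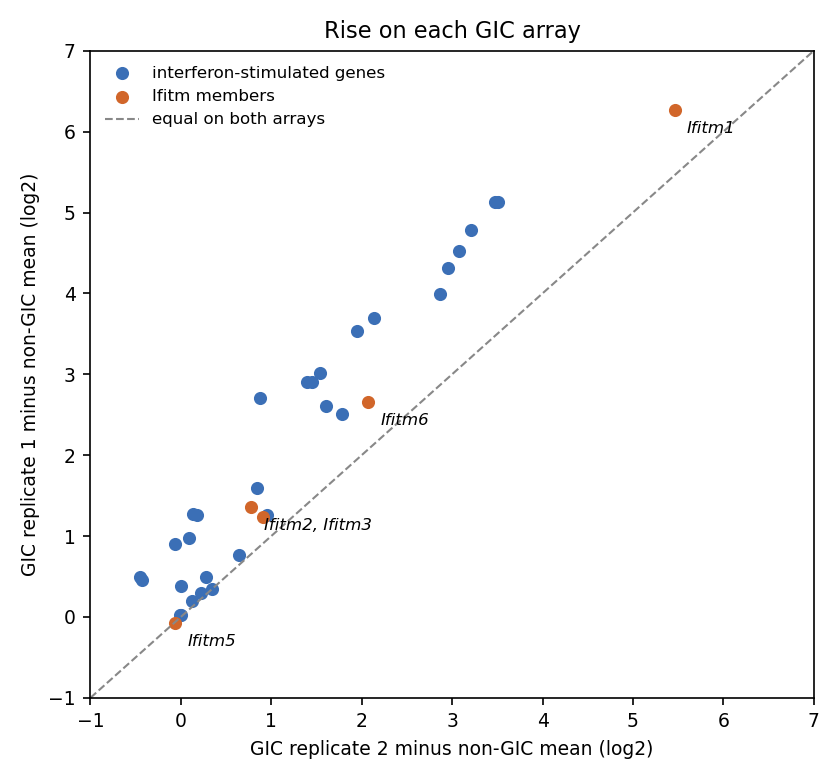
Log2 signal of GIC replicate 1 minus the non-GIC mean (vertical axis) against GIC replicate 2 minus the non-GIC mean (horizontal axis), for the 30 tested interferon-stimulated genes (blue) and the Ifitm members (orange). The dashed line marks equal values. The 30 interferon-stimulated genes lie above the line, and so do Ifitm1, Ifitm2, Ifitm3 and Ifitm6.

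Of the ligands, receptors and signal transducers of the interferon pathway, 1 of 20 tested genes rose and 0 fell (5%, beside 1.23% of all genes). It was Stat2, a subunit of the factor that binds the interferon-stimulated response element, with 8.98 and 8.35 in GIC and 6.28 and 6.51 in non-GIC (4.83-fold, limma adjusted p = 0.0343). The call was lost without GIC replicate 1 (adjusted p = 0.07), without non-GIC replicate 1 or 2 (0.175 and 0.133) and with its probe sets averaged (0.0566). Its partner Irf9 had 9.60 and 8.81 in GIC and 6.33 and 7.55 in non-GIC (adjusted p = 0.125). Of the list, 6 genes were higher and 2 lower at an unadjusted p under 0.05 (9.75% and 8.1% of all genes), and the list's median difference was 0.08.

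The ligand genes gave no signal above the filter level. Ifnb1 lay between 5.41 and 5.64, Ifna4 between 3.86 and 4.22 and Ifng between 3.35 and 3.99 on the 4 arrays, so none of them was tested. The receptor chains Ifnar1, with a log2 difference of 0.19, and Ifnar2, with -0.03, did not pass, and neither did the kinases Jak1 at -0.01 and Tyk2 at 0.06. Irf1, an early interferon-gamma target, had 9.80 and 9.68 in GIC and 10.57 and 10.29 in non-GIC (log2 difference -0.69, limma adjusted p = 0.169). Irf1 and Irf9 are named after their values were seen, and the ligands, receptors and kinases for their place in the pathway.

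Among other virus restriction factors, 1 of 17 tested genes rose and 0 fell (5.88%, beside 1.23% of all genes). The ubiquitin ligase Trim25, a cofactor of RIG-I signalling, had 10.22 and 9.76 in GIC and 7.83 and 7.71 in non-GIC (4.67-fold, limma adjusted p = 0.0288). The call was lost when GIC replicate 1 or any of the non-GIC arrays was left out (adjusted p from 0.0699 to 0.141). Its probe sets, which may bind several transcripts, gave no value with such probe sets left out. At an unadjusted p under 0.05, 6 genes of this list were higher and 0 lower (9.75% and 8.1% of all genes), and the median difference was 0.39. Bst2, which tethers budding virus at the membrane, had 11.12 and 9.73 in GIC and 8.45 and 8.07 in non-GIC (limma adjusted p = 0.135). Its log2 difference was 1.46 without GIC replicate 1 and 2.86 without GIC replicate 2. The glycosylphosphatidylinositol-anchored Ly6e lay between 12.29 and 12.90 on all arrays. Both are named after their values were seen.

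Ifitm proteins belong to the dispanins, which share a fold with an intramembrane helix. Of the relatives outside the cluster, 4 were tested and 1 rose (25%, beside 1.23% of all genes). Syndig1, which encodes a protein of excitatory synapses, had 9.83 and 9.79 in GIC and 7.12 and 6.95 in non-GIC (6.83-fold, limma adjusted p = 0.00898). The call was lost without non-GIC replicate 1 or 2 (adjusted p = 0.07 and 0.0631). Ifitm10, on the same chromosome outside the cluster, had 8.88 and 8.37 in GIC and 8.67 and 8.68 in non-GIC and did not pass. Ifitm7, on chromosome 16, lay between 5.35 and 5.47, below the filter level on all arrays.

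Of 15 tested genes for reported partners and modifiers of Ifitm proteins, 0 rose and 1 fell (6.67%, beside 0.688% of all genes lower). The caveolar coat protein Cav1 had 10.19 and 10.56 in GIC and 12.31 and 12.59 in non-GIC, 4.22-fold lower (limma adjusted p = 0.0302). That call was lost when GIC replicate 1 or any of the non-GIC arrays was left out (adjusted p from 0.0707 to 0.147). The other 14 lay between -0.44 and 0.53. Among them the ubiquitin ligase Nedd4, which turns Ifitm3 over, had a log2 difference of 0.10, the palmitoyltransferase Zdhhc20 had -0.20 and the tetraspanin Cd81 had -0.34. At an unadjusted p under 0.05 limma had 2 genes of this list higher and 2 lower, beside 9.75% and 8.1% of all tested genes. The higher ones were Osbp and Zmpste24 (log2 differences 0.53 and 0.45, limma adjusted p = 0.222 and 0.247). The lower ones were Cav1 and the tetraspanin Cd9 (log2 difference of Cd9 -0.44, adjusted p = 0.188). Of the primordial germ cell markers, a setting in which Ifitm3 is known, 4 were tested and 1 rose (25%, beside 1.23% of all genes). Dppa3, Tfap2c and Dnd1 did not pass (log2 differences -0.16, -0.10 and 0.00), and the list's median was -0.05. Prdm1 rose 2.02-fold (limma adjusted p = 0.0306), with 6.22 and 6.30 in GIC and 5.17 and 5.32 in non-GIC, and is named after its value was seen. It too passed the filter through the GIC arrays alone, and its fold can be understated. Its call was lost without any 1 of the arrays (limma adjusted p from 0.0739 to 0.118) and with eBayes without a trend (0.0611). Dppa3 and Pou5f1 lay between 5.05 and 6.31 on all arrays.

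**Figure D4:**
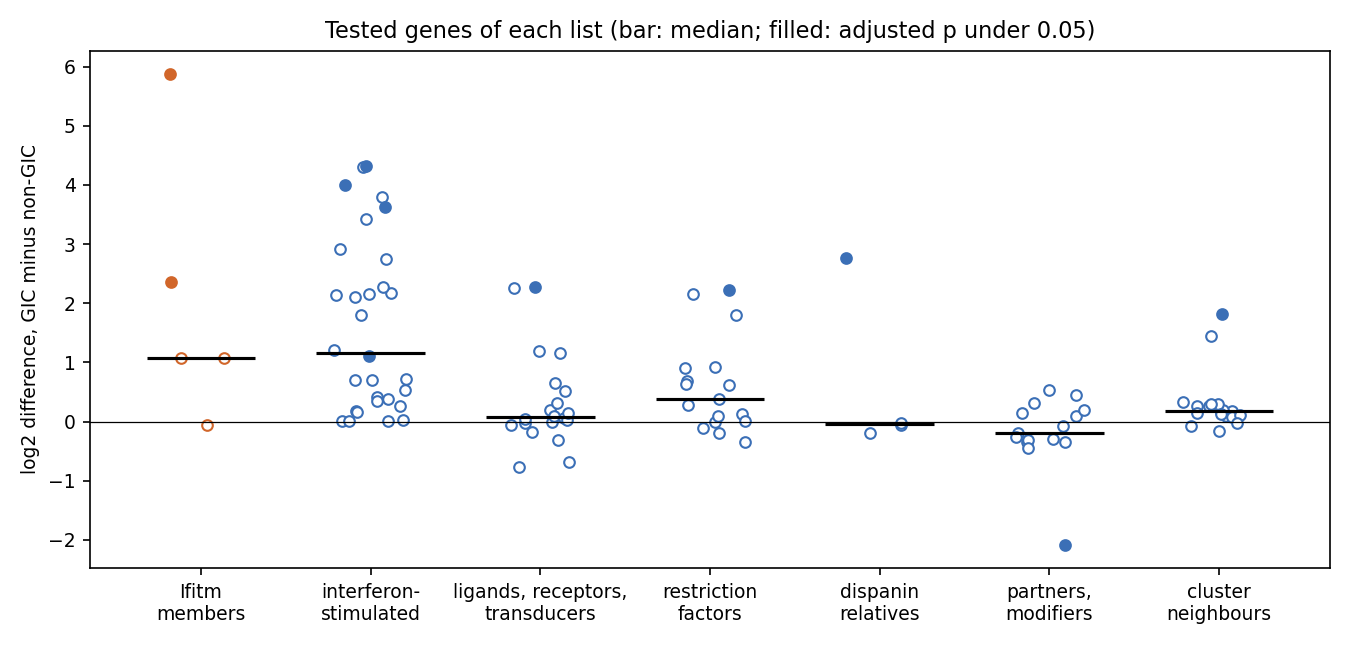
Log2 difference, GIC minus non-GIC (vertical axis), of the tested genes of each list (points) with the list's median (bar), for the Ifitm members in orange and the other lists in blue. Filled points passed limma's threshold, which for the members is a description and not a test. The medians are 1.07 for the members, 1.16 for interferon-stimulated genes, 0.08 for ligands, receptors and transducers and 0.39 for restriction factors. They are -0.04 for dispanin relatives, -0.2 for partners and modifiers and 0.18 for cluster neighbours.

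The genes whose values over the 4 arrays lay closest to each member were found by the Euclidean distance between values centred on each gene's mean. Closest to Ifitm1 were Klhl13, a substrate adaptor of cullin-based ubiquitin ligases (distance 0.42), Wfdc2, a secreted protein of the whey acidic protein family (1.13), and the G-protein regulator Rgs2 (1.17). The first and last of these rest on the probe set used. The log2 difference of Klhl13 was 5.99, but 4.12 with its probe sets averaged and 2.24 with those that may bind several transcripts left out, and that of Rgs2 was 4.85, but 2.85 with its probe sets averaged. Closest to Ifitm6 was Stat2 (0.11), followed by the fatty acid binding protein Fabp3 (0.20) and Trim25 (0.27). Stat2 and Trim25 are in the interferon lists, which hold 67 of the 13366 tested genes. The distance depends largely on the size of the difference between the sublines, the contrast on which the family was chosen. It is therefore not evidence of a link. The log2 difference of Fabp3 was 2.26, but 1.13 with its probe sets averaged. Closest to Ifitm2 were Pdlim3, Fam210b and Nrbf2 (0.05, 0.06 and 0.07), and closest to Ifitm3 were Pofut1, H13 and Kantr (0.07, 0.08 and 0.09). Within a distance of 0.5 lay 1 gene for Ifitm1, 26 for Ifitm6, 387 for Ifitm2 and 383 for Ifitm3. Ifitm5 had 8639 genes within that distance, so its nearest, Plekha7, 9230114K14Rik and Mdrl (0.01 each), are only some of many flat profiles. The log2 difference of Plekha7 was -0.05, but 0.71 with its probe sets averaged. With 4 arrays these distances describe a profile and carry no test.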

How the data were processed

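The deposited table holds 1 log2 value per probe set and array for 45101 probe sets. The log2 scale was read from the values (2.75 to 15.12). How the authors corrected, summarised and normalized the signals is not given in the sources used here, and the arrays had near-equal quantiles as deposited. Per the labels, targets were biotinylated during in vitro transcription. Probe sets were named from the platform annotation, with symbols updated to GRCm38.p6. Probe sets with 1 gene (34945) were used, the one with the highest mean per gene. Differences were fitted with limma 3.58.1 in R 4.3.3 (lmFit, eBayes with a trend, group only, two-sided), with 2 residual and 2.72 prior degrees of freedom, and tested on simulated data. An exact permutation test of 2 against 2 arrays cannot go below p = 0.33. Their number limits the precision. The members and lists were chosen with earlier results of these data known. Named were the members, up to 6 called genes of each list (or the 2 with the smallest p), every called neighbour, and the 3 closest profiles of each member. Other genes were named for their place in a list or pathway or after their values were seen, and not all of them are marked. Alternatives were other scaling, filters, probe set choices, variance moderation, replicate blocks and leaving out each array. Figures were drawn with matplotlib 3.10.9.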

Additional observations from a re-analysis of the deposited data

How the results depend on the processing

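Without 1 array the differences of Ifitm1, Ifitm2, Ifitm3 and Ifitm6 ranged from 5.46 to 6.27, 0.78 to 1.36, 0.78 to 1.37 and 2.07 to 2.66, which the distances between replicates fix. With quantile normalization they were 5.88, 1.09, 1.08 and 2.34, and with median centring 5.84, 1.04, 1.04 and 2.33. Probe set choice (1 each), variance moderation and blocks cannot move a member's difference, so they say nothing of its stability. Ifitm5 ranged from -0.10 to -0.02 without 1 array and was -0.10 with quantile normalization. The number of called genes was 257, and 12 to 188 without 1 array, and that of called probe sets was 436, and 0 to 433 without 1 array (2678 at an unadjusted p under 0.05 with limma where 0 were called, without non-GIC replicate 1). Of the interferon genes 6 were called, 0 to 17 without 1 array and 2 with eBayes without a trend. Of the cluster neighbours 1 was called, and 0 to 1 without 1 array. Same-numbered arrays did not deviate together (r = -0.32 over genes). This correlation alone cannot show whether they were handled together. With the replicate block 29 genes, 49 probe sets, 0 interferon genes (27 higher and 2 lower at an unadjusted p under 0.05 with limma), 0 neighbours (2 higher) and 0 members (4) were called. With a block of crossed numbers, chosen after seeing the data, 685 genes, 1066 probe sets, 17 interferon genes, 2 neighbours and 4 members were called. The cause of these changes was not tested. Where leaving out an array left a lone one, its spread was taken from the other subline.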
